A study of Homo sapiens with 6 samples.

Results

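Messenger RNA of 9 genes that carry the interferon signal from the cell surface to the nucleus was followed in A2780 cells, an established ovarian cancer line, with and without knockdown of the splicing factor USP39. The genes were chosen by name: the receptor chains IFNAR1 and IFNAR2, the receptor-bound kinases JAK1 and TYK2, the transcription factors STAT2, STAT3, IRF9 and IRF1, and the inhibitor SOCS3. Of these 9 genes, 8 had a row among the 16571 gene symbols counted, IFNAR2 was not analysed here, and 7 of the 10695 genes with enough counts to be tested were among them. With knockdown, SOCS3 rose 2.41-fold, IRF9 rose 1.35-fold, IRF1 rose 1.33-fold, and TYK2 fell to 0.874 of the control level. No change of IFNAR1, STAT2 or STAT3 passed the test, and JAK1 was counted once in 6 libraries.

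RNA sequencing was done on 3 libraries of cells carrying the control vector (pGIPZ-NC) and 3 of cells carrying a hairpin against USP39 (shUSP39), described by the submitters as biological triplicates. Lentivirus delivered the vector to both groups, so that the controls were also infected, and according to the study's methods pGIPZ was also the backbone of its USP39 hairpins. The study used more than one hairpin, and which of them each shUSP39 library carries is not stated in the labels. No treatment with interferon or another cytokine is named for either group. Since USP39 itself was not analysed here, the knockdown itself was not checked in these counts. All results come from whole cultures, in which a change in the number of expressing cells and a change in RNA per cell cannot be told apart.

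Type I interferons bind a receptor made of the IFNAR1 and IFNAR2 chains. The receptor activates the bound kinases TYK2 and JAK1, which phosphorylate STAT proteins. STAT2 and IRF9 are subunits of the complex ISGF3, which binds interferon-stimulated response elements (ISRE), whereas STAT3, activated by cytokines of the interleukin-6 family, binds gamma-activated sites (GAS). IRF1 is a second-wave transcription factor of this pathway, and SOCS3 is a feedback inhibitor that blocks JAK kinases at receptors of the gp130 type.

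The promoters of IRF1 and IRF9 are shown because these 2 transcription factors rose together. They are also shown because, among the 12 windows searched for the 8 genes, only theirs held a GAS match. Each window covers the 250 bases before the RefSeq start on GRCh38.p14, 5′ to 3′ on the strand of the gene, with the match in capitals. The IRF1 window is chr5:132490774-132491023 on the minus strand, and the IRF9 window is chr14:24161015-24161264 on the plus strand.
IRF1: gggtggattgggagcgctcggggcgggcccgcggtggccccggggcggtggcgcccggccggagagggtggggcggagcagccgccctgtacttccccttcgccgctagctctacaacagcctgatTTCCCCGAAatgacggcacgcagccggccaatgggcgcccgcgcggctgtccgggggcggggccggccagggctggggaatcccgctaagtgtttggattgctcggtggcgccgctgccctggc
IRF9: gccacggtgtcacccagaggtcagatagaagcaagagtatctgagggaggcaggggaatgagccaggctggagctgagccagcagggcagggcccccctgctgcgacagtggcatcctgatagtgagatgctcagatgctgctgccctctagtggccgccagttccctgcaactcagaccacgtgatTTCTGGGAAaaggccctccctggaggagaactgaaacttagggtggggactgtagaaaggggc
In the IRF1 window the match TTCCCCGAA lies 124 to 116 bases before the start. In the IRF9 window the match TTCTGGGAA lies 63 to 55 bases before it. The motif searched was TTCNNNGAA on both strands. The ISRE motif, GAAA followed after any 2 bases by GAAA, on both strands, was found in none of the 12 windows of the 8 genes. Neither SOCS3 window held a GAS match. These windows are chr17:78360926-78361175 and chr17:78359668-78359917 on the minus strand, and the bases between them were not searched. Whether other parts of the SOCS3 promoter hold a GAS match was therefore not tested. Of 35116 promoter windows of this length in the same RefSeq table, 6.57% held the GAS letters and 3.02% the ISRE letters. A match of letters is a description of the window and not a measured binding site.

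The libraries held 28294819 to 32939264 counts each, and the share of counts in the 10 most counted genes was similar (9.38% to 9.98%). Counts were found for 12662 to 12819 genes in the 3 control libraries and in shUSP39 replicate 1, but for 15446 and 14890 genes in shUSP39 replicates 2 and 3, so results are given with and without these 2 libraries where it matters. Over all genes, 33.6% passed an adjusted p of 0.05 (quasi-likelihood test of edgeR, adjusted after Benjamini-Hochberg), 48.0% of them higher with knockdown, or 58.0% with upper-quartile scaling. Of 9 ovarian and epithelial markers with a row, 7 were under 1 CPM (counts-per-million) in both groups, with PAX8, EPCAM and CDH1 close to 0. Their summed level was 21.9 to 25.3 CPM in pGIPZ-NC and 32.9 to 39.7 CPM in shUSP39, mostly KRT18, which rose, whereas KRT8, its usual partner, fell from 28, 37 and 26 counts to 3, 0 and 0. MUC16 went from 0.0736 to 2.52 CPM, with 150 and 71 counts in shUSP39 replicates 2 and 3. The leukocyte and endothelial markers stayed at or under 40 counts in every library except for CD68, at 10.7 and 11.2 CPM in the 2 groups, and the pan-leukocyte marker PTPRC had at most 7 counts. Of 6 fibroblast markers listed, 5 were tested and 3 fell (COL3A1, DCN and LUM), where 17.5% of all genes tested fell. DCN and LUM were under 0.322 CPM in a shUSP39 library and were tested only through their counts in pGIPZ-NC, which favours a fall. The same holds for KRT8. COL1A1 (log2 fold change -0.20) and PDGFRB (0.29) did not pass and had overlapping groups. The summed level of the fibroblast markers was 1422 to 1474 CPM in pGIPZ-NC against 796 to 851 CPM in shUSP39, mostly COL3A1. Their part in the results below was not tested.

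How high each gene stood differed by orders of magnitude, and the order was the same in both groups. Per kilobase of transcript, TYK2 was highest at 48.2 ± 2.79 CPM per kb (SD, n = 3) in pGIPZ-NC, followed by IFNAR1 at 32.8 ± 1.53, SOCS3 at 11.5 ± 0.932, IRF1 at 8.27 ± 0.523 and IRF9 at 6.17 ± 0.688. STAT3 at 0.687 ± 0.111 and STAT2 at 0.302 ± 0.0785 CPM per kb were far lower, and JAK1 was last at 0.00197. The library ranges of neighbours in this order did not overlap in either group. In shUSP39, SOCS3 reached 28.1 ± 0.583 CPM per kb and so came near IFNAR1 at 32.2 ± 0.576, while TYK2 stood at 42.9 ± 1.47.

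The low levels of the STAT genes and of JAK1 need care, since they went with the number of transcripts known for the gene. The table gives 1 transcript for each of the 8 genes. The 5 genes with 1 RefSeq messenger RNA accession (IFNAR1, TYK2, IRF9, IRF1 and SOCS3) had mean levels of 7.32 to 45.6 CPM per kb. Those with several accessions and a row (STAT2 with 2, STAT3 with 3 and JAK1 with 8) had at most 0.791. Over the whole table the median level also fell with this number, from 1.36 CPM per kb for 7889 genes with 1 accession through 0.631 for 3416 genes with 2 and 0.349 for 1862 genes with 3 to 0.216 for 2403 genes with 4 or more. Within its class STAT2 stood at the 40.4th percentile, STAT3 at the 62.5th and JAK1 at the 1.58th. Whether reads shared between transcripts were left out in counting is not stated and was not tested. Levels of these genes may be too low, and their differences rest on few counts.

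**Figure D1:**
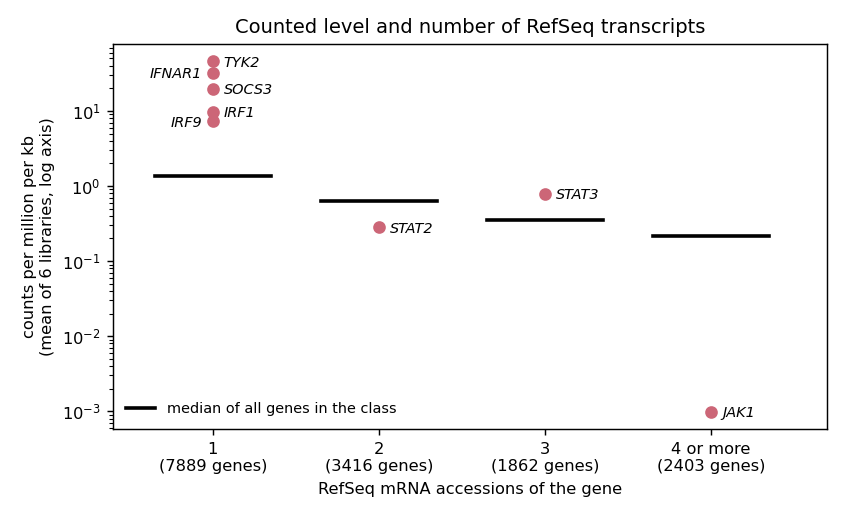
Mean level over 6 libraries in counts-per-million per kb (vertical log axis) against the number of RefSeq messenger RNA accessions of the gene (horizontal axis), with each named point 1 signalling gene and the bars the medians of all genes in the class. The 5 genes with 1 accession lie between 7.32 and 45.6, above the bar of 1.36, whereas STAT3, STAT2 and JAK1 lie at 0.791 or below.

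The signal starts at the receptor. IFNAR1 (chr21:34696692-34732170, plus strand, GRCh37, 11 exons) encodes the chain that binds TYK2. It had 6520, 6362 and 6000 counts in the pGIPZ-NC libraries and 6342, 6086 and 5718 in the shUSP39 libraries, or 202, 193 and 212 CPM against 199.5, 201 and 194 CPM. The ranges overlapped, and the log2 fold change was -0.05 ± 0.04 (SE; adjusted p = 0.359, edgeR's quasi-likelihood test). The 95% interval of the fold was 0.907 to 1.02.

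Both kinases of the receptor were listed, but 1 of them gave almost no counts. TYK2 (chr19:10461209-10491284, minus strand, GRCh37, 25 exons) had 6556, 6375 and 6144 counts in pGIPZ-NC and 5561, 5576 and 5490 in shUSP39. As levels these were 203, 194 and 217 CPM against 175, 184 and 187 CPM, so every knockdown library lay below every control library. TYK2 fell by 0.19 ± 0.04 (SE) in log2 units, a fold of 0.874 with a 95% interval of 0.820 to 0.932 (adjusted p = 0.0012, edgeR's quasi-likelihood test). JAK1 (chr1:65298906-65533437, minus strand, GRCh37) had 1 count in pGIPZ-NC replicate 1 and 0 in the other 5 libraries. It was not tested and no fold is given, because both groups were at or under the floor of 3 counts per library.

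STAT2, which carries the transactivation domain of ISGF3, was counted 44, 32 and 47 times in pGIPZ-NC and 38, 31 and 35 times in shUSP39 (chr12:56735381-56753987, minus strand, GRCh37). Its levels of 1.36, 0.971 and 1.66 CPM against 1.20, 1.03 and 1.19 CPM overlapped. The log2 fold change was -0.25 ± 0.36 (SE; adjusted p = 0.651, edgeR's quasi-likelihood test). The 95% interval of the fold ran from 0.504 to 1.41, so a change of up to about 2-fold downward or 1.41-fold upward was not excluded. STAT3, the factor downstream of interleukin-6 type cytokines, had 116, 92 and 109 counts in pGIPZ-NC and 128, 144 and 134 in shUSP39 (chr17:40465342-40540558, minus strand, GRCh37). In CPM these were 3.60, 2.79 and 3.85 against 4.03, 4.76 and 4.56, without overlap of the groups. The log2 fold change of STAT3 was 0.36 ± 0.20 (SE) and did not pass (adjusted p = 0.182, edgeR's quasi-likelihood test).

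IRF9, the DNA-binding subunit of ISGF3, was higher in every knockdown library. It had 607, 555 and 596 counts in pGIPZ-NC and 769, 786 and 817 in shUSP39, or 18.8, 16.8 and 21.1 CPM against 24.2, 26.0 and 27.8 CPM (chr14:24630443-24637252, plus strand, GRCh37, 9 exons). The mean rose from 18.9 ± 2.11 to 26.0 ± 1.79 CPM (SD, n = 3), and the log2 fold change was 0.44 ± 0.10 (SE; adjusted p = 0.000754, edgeR's quasi-likelihood test). Another protein-coding gene on the same strand overlaps IRF9 over 5219 bp of genome, introns included, so reads of the 2 genes may not be told apart there.

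IRF1, which activates interferon and antigen presentation genes, moved by a similar amount. It had 902, 1038 and 813 counts in pGIPZ-NC and 1136, 1199 and 1298 in shUSP39, or 28.0, 31.5 and 28.7 CPM against 35.7, 39.7 and 44.1 CPM (chr5:131776132-131844411, minus strand, GRCh37, 10 exons). The groups did not overlap, and the mean rose from 29.4 ± 1.86 to 39.8 ± 4.20 CPM (SD, n = 3), and the log2 fold change was 0.41 ± 0.08 (SE; adjusted p = 0.000325, edgeR's quasi-likelihood test). The span given for IRF1 lies within another protein-coding gene on the opposite strand, and use of strand in counting is not stated. Both IRF calls were lost when shUSP39 replicates 2 and 3, the libraries with more detected genes, were left out together. With shUSP39 replicate 1 alone against the controls, the log2 fold change was 0.33 for IRF9 (adjusted p = 0.0924) and 0.26 for IRF1 (adjusted p = 0.121), in the same direction but past the threshold for neither gene. The windows of these 2 genes hold the GAS letters printed above. The 2 genes were picked for that after their changes were known.

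SOCS3 changed most. It had 937, 1019 and 965 counts in pGIPZ-NC and 2386, 2355 and 2287 in shUSP39, at chr17:76352859-76356158 on the minus strand (GRCh37, 2 exons). These were 29.1, 30.9 and 34.1 CPM against 75.1, 77.9 and 77.8 CPM, and the gap between the groups was wider than the spread within either. The mean rose from 31.4 ± 2.55 to 76.9 ± 1.59 CPM (SD, n = 3), a log2 fold change of 1.27 ± 0.07 (SE) and a fold of 2.41 with a 95% interval of 2.19 to 2.66 (adjusted p = 3.71e-14, edgeR's quasi-likelihood test). By adjusted p it ranked 96th of all genes tested. Of the genes that passed the test, 376 had a larger log2 fold change.

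**Figure D2:**
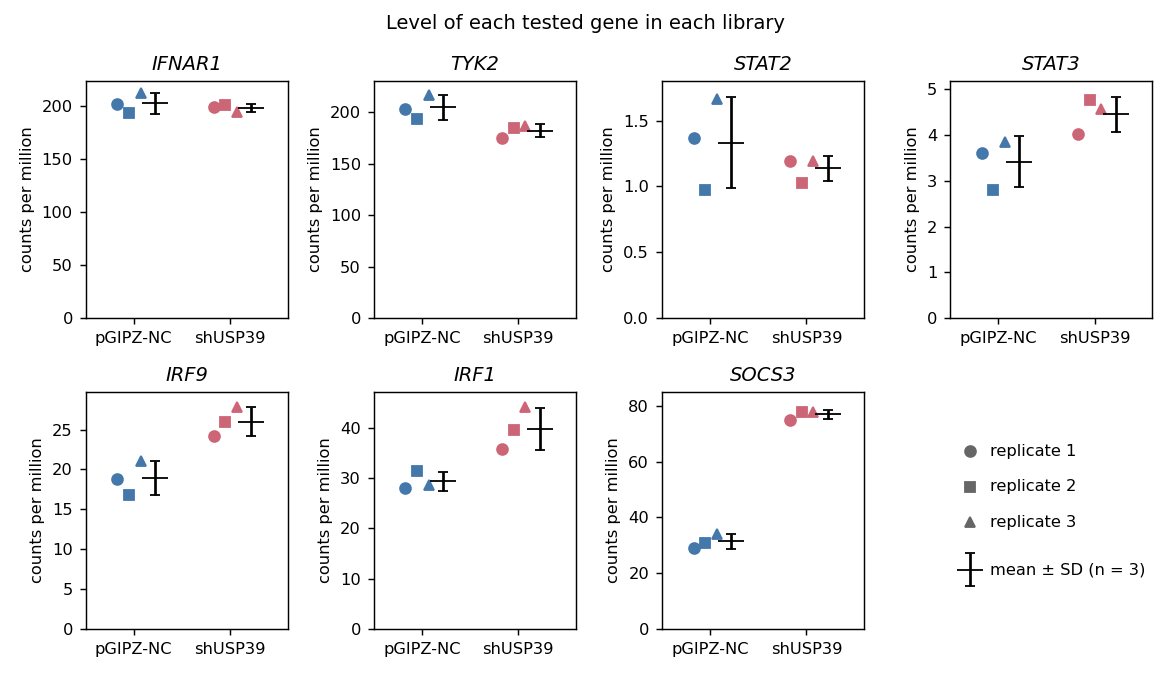
Counts-per-million (vertical axis, starting at 0) of each of the 7 tested signalling genes in each library, with 1 point per library and the 2 groups side by side, and bars for the mean and SD. SOCS3 moves from between 29.1 and 34.1 to between 75.1 and 77.9, IRF9 and IRF1 move up without overlap, TYK2 moves down without overlap, and IFNAR1 and STAT2 overlap.

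Counted together, knockdown raised 3 of the 7 tested genes and lowered 1 (adjusted p under 0.05), against 16.1% higher and 17.5% lower among all genes tested. The groups did not overlap for 4 genes higher and 1 lower with knockdown, where 24.1% and 20.3% of all genes did so. SOCS3 alone was beyond 2-fold, a size that 6.81% of all tested genes passed. The median log2 fold change of the 7 was 0.36, against 0.01 over all genes, and the median absolute change was 0.36 against 0.22. With shUSP39 replicate 1 alone, 2 of the 7 passed, TYK2 and SOCS3, against 19.7% of all genes tested in that setting. The plot of fold changes with their intervals shows the spread of the 7 around 0, and the plot over settings shows how far each value moved.

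**Figure D3:**
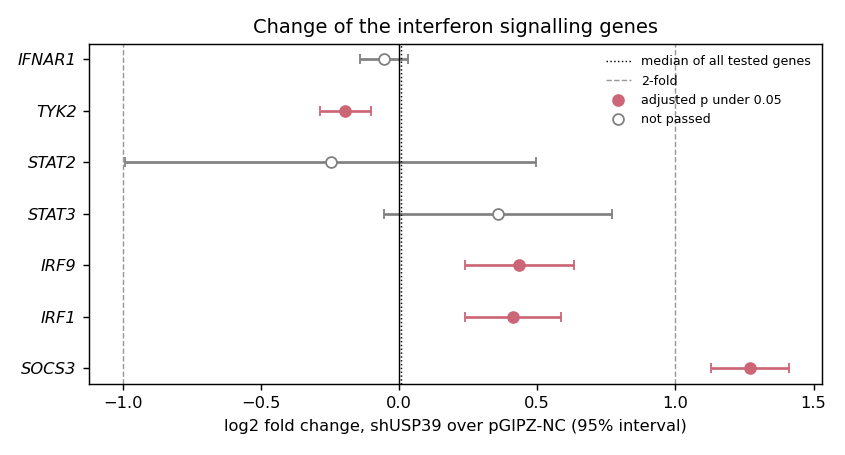
Log2 fold change of shUSP39 over pGIPZ-NC (horizontal axis) for the 7 tested signalling genes, with 95% intervals, the median of all genes as a dotted line and the 2-fold limits as dashed lines; filled points passed an adjusted p of 0.05. SOCS3 at 1.27 lies beyond the 2-fold line, IRF9 at 0.44 and IRF1 at 0.41 lie right of 0, TYK2 at -0.19 lies left of it, and the intervals of STAT3, IFNAR1 and STAT2 cross 0.

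**Figure D4:**
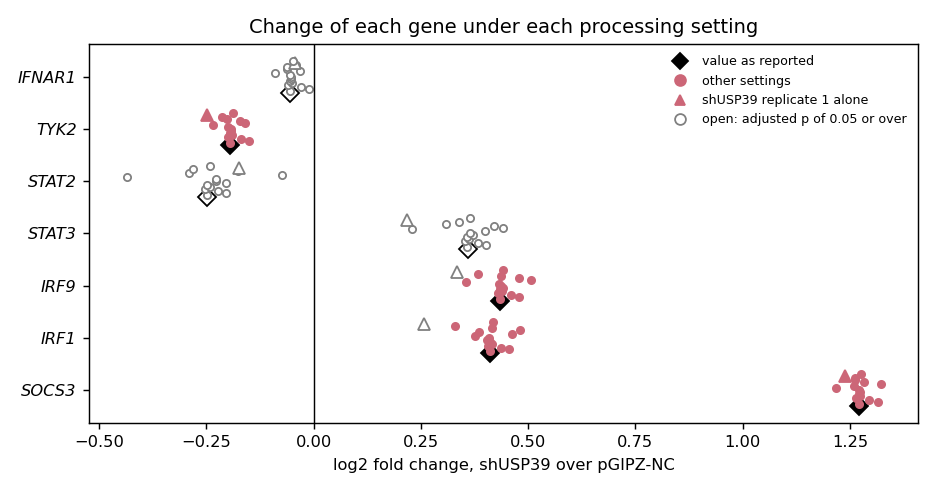
Log2 fold change of the same genes under each of 16 other settings of scaling, filter, test and libraries (horizontal axis), with diamonds for the reported value, a triangle for shUSP39 replicate 1 alone, and open marks where the adjusted p was 0.05 or over. SOCS3 stays between 1.22 and 1.32 and TYK2 between -0.25 and -0.15 with closed marks throughout, and the triangles of IRF9 and IRF1 are open.

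The genes whose level followed SOCS3 most closely over the 6 libraries were COL6A1, LIMD2 and RGMB. Likeness was the root-mean-square difference between profiles of log2 (CPM + 0.1), each centred on its own mean, and was 0.0644, 0.0693 and 0.0801. COL6A1, a chain of collagen VI, went from 37.3 to 92.9 CPM, LIMD2 from 11.5 to 26.2 CPM, and RGMB, a co-receptor for bone morphogenetic proteins, from 21.4 to 49.9 CPM. The likeness covers 6 libraries in 2 groups, so it is mostly a likeness in the size of 1 difference.

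Upstream of the receptor, ligand genes were mostly at or near 0 in the controls. Of 17 listed, 15 had a row and 6 were tested, of which 3 were higher (IFNL1, IFNB1 and IL11) and 1 was lower (IFNE), with a median log2 fold change of 0.71. Over all genes tested, 16.1% were higher and 17.5% lower. IFNL1 and IFNB1 were tested only because of their counts in shUSP39. Of the other 4, 1 was higher and 1 was lower, and their median was 0.17. IFNB1, a type I interferon that most cell types can make, had 0, 4 and 0 counts in pGIPZ-NC and 50, 79 and 104 in shUSP39 (log2 fold change 5.76 ± 0.64 (SE), adjusted p = 5.02e-08). All 4 control counts were in pGIPZ-NC replicate 2, and without that library the controls were at 0 and the fitted value was 9.28, which is no bound. IFNL1, a type III interferon, had 0 counts in all control libraries and 137, 108 and 75 in shUSP39, at least 109-fold higher when the controls are set to 3 counts over the group. IL11, an activator of STAT3 through gp130, rose from 3.94 ± 0.187 to 9.07 ± 1.25 CPM (SD, n = 3; log2 fold change 1.18, adjusted p = 1.85e-06). IFNE, an interferon of the reproductive tract, fell by 0.77 on the log2 scale with overlapping groups (adjusted p = 0.0158). This call was lost without pGIPZ-NC replicate 1 (-0.71, adjusted p = 0.0609), without pGIPZ-NC replicate 2 (-0.61, adjusted p = 0.122), without shUSP39 replicate 3 (-0.64, adjusted p = 0.0755) and with shUSP39 replicate 1 alone (-0.48, adjusted p = 0.351).

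Among 15 other cytokine receptor genes, 8 were tested, 2 rose and 1 fell, where 16.1% of all genes tested rose and 17.5% fell. The median log2 fold change of the 8 was 0.29. Without IFNLR1, which was tested only through shUSP39, the median of the other 7 was 0.21, a division made after the values were seen. IFNGR1, the ligand-binding chain for interferon-gamma, rose from 36.4 ± 0.232 to 47.7 ± 0.745 CPM (SD, n = 3; log2 fold change 0.36, adjusted p = 0.000119). IL6R rose by a log2 fold change of 0.82 from a low level (1.36 to 2.44 CPM, adjusted p = 0.0319), and IL13RA1 fell by 0.16 (adjusted p = 0.0053). The IL6R call was lost with any 1 library left out except pGIPZ-NC replicate 1 (0.61 to 0.88, adjusted p = 0.0516 to 0.152), and that of IL13RA1 without shUSP39 replicate 2 (-0.11, adjusted p = 0.0708). Neither passed with shUSP39 replicate 1 alone (adjusted p = 0.127 and 0.546). All adjusted p-values of listed genes come from the same edgeR fit over all genes tested.

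Of 6 other JAK and STAT genes, 4 were tested and 2 fell, where 17.5% of all genes tested fell and 33.6% passed in either direction. STAT5B fell by 0.41 (adjusted p = 3.56e-08) and JAK3 by 0.38 (adjusted p = 0.0432) on the log2 scale, and JAK2 (0.61, adjusted p = 0.076), named after its value was seen, did not pass. The call of JAK3 was lost whichever 1 of the 6 libraries was left out (-0.43 to -0.35, adjusted p = 0.0573 to 0.111). Of 7 other IRF genes, 3 were tested and 1 passed: IRF2, which competes with IRF1 for its sites, fell by 0.32 (adjusted p = 0.000489), while IRF7, induced by ISGF3, had a log2 fold change of 1.11 from under 1 CPM and did not pass (adjusted p = 0.0529; named after its value was seen). IRF2 did not pass with shUSP39 replicate 1 alone (-0.24, adjusted p = 0.076).

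The other inhibitors of the pathway did not move as 1 group with SOCS3. Of 19 negative regulators, 17 were tested, 3 rose and 3 fell, and their median log2 fold change was -0.05. These counts are near the shares of all genes tested, of which 16.1% rose and 17.5% fell. SOCS1, which inhibits the kinases at interferon receptors, rose from 0.427 to 1.26 CPM (log2 fold change 1.52 ± 0.47 (SE), adjusted p = 0.0118). Without shUSP39 replicate 2 this call was lost (1.12, adjusted p = 0.144). SOCS6 (-0.34, adjusted p = 0.000558), SOCS2 (-0.36, adjusted p = 0.0133) and the ubiquitin ligase CBL (-0.13, adjusted p = 0.00605) fell. The call of SOCS2 was lost without pGIPZ-NC replicate 2 (-0.26, adjusted p = 0.113) and without shUSP39 replicate 1 (-0.30, adjusted p = 0.0572), and that of CBL with upper-quartile scaling (-0.09, adjusted p = 0.0741). With shUSP39 replicate 1 alone, SOCS1 (adjusted p = 0.353), SOCS6 (adjusted p = 0.114) and CBL (adjusted p = 0.248) did not pass. SOCS7 (0.13, adjusted p = 0.0375) and the adaptor SH2B3 (0.25, adjusted p = 0.0245) rose; these 2 were named after their values were seen. USP18, an interferon-induced brake on the IFNAR2 chain, stood at 52.7 ± 0.82 and 51.7 ± 0.63 CPM (SD, n = 3; log2 fold change -0.05, adjusted p = 0.59), likewise named after its value was seen.

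Among the target lists, which were chosen with earlier results of these data known, that of type I interferon had the largest median change. Of 32 listed, 24 were tested, 17 rose, 14 of them beyond 2-fold, and 1 fell. Over all genes tested, 16.1% were higher, 4.53% were beyond 2-fold higher and 17.5% were lower. The median log2 fold change of the 24 was 1.87. Of the 24, 7 (IFI44, IFI6, IFIT1, MX2, OAS1, OAS2 and RSAD2) were under 0.322 CPM in a control library and were tested only through their counts in shUSP39, which favours a rise among them. Of the other 17, 10 rose, 7 of them beyond 2-fold, and the median was 0.60, a division made after the values were seen. ISG15, a ubiquitin-like modifier, rose from 57.9 ± 2.48 to 461 ± 10.4 CPM (SD, n = 3; log2 fold change 2.97, adjusted p = 3.05e-26), IFIT2 by a log2 fold change of 2.88 (adjusted p = 1.63e-21) and OASL by 5.94 (adjusted p = 8.41e-20). BST2, which tethers budding virus, fell by 0.77 on the log2 scale (adjusted p = 7.01e-12).

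Targets of interferon-gamma and IRF1 went both ways. Of 18 listed, 11 were tested, 5 rose and 2 fell, with a median log2 fold change of 0.30. Among all genes tested, 16.1% rose and 17.5% fell. CXCL10 and GBP4 likewise were tested only through shUSP39. Of the other 9, 3 rose and 2 fell, and their median was 0.08. B2M, the light chain of MHC class I, rose from 505 ± 34.8 to 729 ± 16.7 CPM (SD, n = 3; adjusted p = 1.31e-10). CXCL10, a chemokine for T cells, had 1 count in the controls and 347 with knockdown, a ratio of 354.7 with a 95% counting interval of 63.2 to 14050. That 1 count was in pGIPZ-NC replicate 3, without which the controls were at 0. The remaining 3 that rose, named after their values were seen, were GBP4 (4.25), TAP1 (0.78) and WARS1, listed as WARS (0.34). The guanylate-binding proteins GBP2 and GBP1 fell by 1.02 (adjusted p = 3.67e-10) and 0.42 (adjusted p = 1.6e-07) on the log2 scale.

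STAT3 targets went both ways. Of 17 listed, 12 were tested, 4 rose and 1 fell, where 16.1% of all genes tested rose and 17.5% fell. The median log2 fold change of the 12 was 0.07, and the summed level of the list went from 2098 to 2139 CPM in pGIPZ-NC to 2444 to 2515 CPM in shUSP39. The largest rise within that sum was that of MYC, from 508 to 703 CPM. MYC (0.44, adjusted p = 4.57e-11) and the kinase PIM3 (0.45, adjusted p = 2.49e-09) rose, as did JUNB (0.16) and CEBPD (0.24), the last 2 named after their values were seen. BCL3, a nuclear cofactor of NF-kB, fell by 0.66 on the log2 scale (adjusted p = 1.73e-08). The plot of the listed genes sets these groups side by side.

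**Figure D5:**
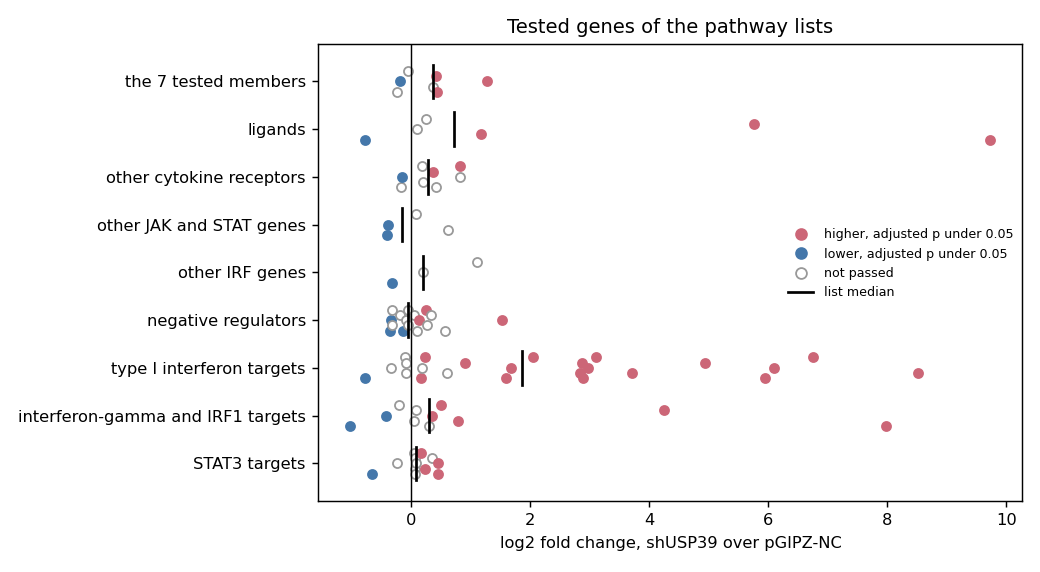
Log2 fold change of shUSP39 over pGIPZ-NC (horizontal axis) for each tested gene of the 8 pathway lists and for the 7 tested signalling genes, with 1 point per gene and a bar for the median of the list. The type I interferon targets spread from -0.77 to 8.52 around a median of 1.87, or 0.60 without the 7 genes tested only through shUSP39, and the signalling genes spread from -0.25 to 1.27.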

How the data were processed

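The authors deposited 1 table with 1 line per RefSeq messenger RNA, holding the unnormalised read count of each of the 6 libraries. The submitters' processing notes name HISAT2, Cufflinks and hg19 without a role, and the counter and its use of strand are not given in the sources used here. The deposited columns of fold change, p-value, q-value and group means were not used. Counts were summed per gene symbol, from 21368 transcripts to 16571 symbols, with 46 of 47 date-like symbols repaired through the accession. Groups came from the labels. Genes were filtered with filterByExpr, scaled by TMM and tested with edgeR 4.0.16 (R 4.3.3; limma 3.58.1), by quasi-likelihood with robust fitting and the group as the only term, and adjusted by Benjamini-Hochberg over 10695 genes. The SE is the absolute log2 fold change over the square root of F. Levels are CPM, per kb of the longest coding transcript of GENCODE on GRCh37 where genes are compared. Tests on simulated data for this comparison recovered 52% of genes changed 1.3-fold, 80% at 2-fold and 100% at 4-fold, with 10 false calls among 10537 genes. Only 48 to 50 genes were changed at each size, a far smaller share than the 33.6% that passed in the real data. The simulated spread depended on the level of a gene alone, so recovery in the real data may differ. Alternatives covered scaling, filter, test (DESeq2 1.42.0, limma-voom), a replicate block and the libraries used.

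Libraries held 28294819 to 32939264 counts, and intervals of counts and floors (3 counts) cover counting error only. The 9 genes and the pathway lists were chosen with earlier results of these data known. From each list, the 3 tested genes with the smallest adjusted p among those that passed are named, with any gene that passed in the other direction, and for SOCS3 the 3 genes with the most similar profile. Other genes are marked where they appear. IFNAR2 and USP39 were not analysed here. One item of the pathway is not reported here.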

Additional observations from a re-analysis of the deposited data

How the results depend on the processing

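SOCS3 and TYK2 passed an adjusted p of 0.05 in all 16 alternatives (edgeR, DESeq2 or limma-voom), with log2 fold changes of 1.22 to 1.32 and -0.25 to -0.15. IRF9 and IRF1 passed in 15 of 16, and IFNAR1, STAT2 and STAT3 in 0 of 16. No result changed direction. The exception was shUSP39 replicate 1 alone, without replicates 2 and 3, where the lone library is assumed to vary like the controls and fewer samples enter: IRF9 was 0.33 (adjusted p = 0.0924), IRF1 0.26 (adjusted p = 0.121), the genes passing went from 4 to 2 and the median from 0.36 to 0.22. There the other cytokine receptors fell from 3 to 1 genes passing, the other IRF genes from 1 to 0, negative regulators from 6 to 1 and STAT3 targets from 5 to 3.

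Leaving out 1 library at a time, the median ranged from 0.23 (without pGIPZ-NC replicate 2) to 0.42, other IRF genes passing from 1 to 2 and negative regulators from 3 (without shUSP39 replicate 2) to 7. Other IRF genes passing were 2 with limma-voom, with either filter setting (none, or 10 counts or more in each library), with scaling by library size alone and with upper-quartile scaling. Other JAK and STAT genes passing went from 2 to 1 with library size alone, upper-quartile scaling or no filter, and were 1 (lowest and highest) with any 1 library left out and 1 with shUSP39 replicate 1 alone. Ligands passing went from 4 to 7 with no filter and to 2 with 10 counts or more in each library. In the latter setting type I interferon targets went from 18 to 11, since genes near 0 in the controls are then not tested. Over all genes, 23.1% passed with no filter and 35.4% with 10 counts or more in each library, against 33.6% as reported. The share was 28.2% to 32.3% with any 1 library left out, and 33.3%, 33.5% and 33.9% with library size alone, upper-quartile scaling and limma-voom. The cause of the other moves was not tested. Of the remaining values, 503 kept their side of the threshold and 33 no longer passed.

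Same-numbered libraries of the 2 groups did not deviate together (Pearson r of deviations 0.0700, 0.0120 and 0.0107 across genes). With the replicate block, 4 of the 7 genes passed with a median of 0.36, 2 other IRF genes passed, and the calls over all genes went from 3598 to 3981. No test of transcript usage was possible for the 9 genes, since none has more than 1 transcript in the table. STAT2 (31 to 47 counts per library) and STAT3 (92 to 144) rest on few counts.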
